A study of Mus musculus with 2 samples.

Results

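The measurements concern 8 genes used as markers of the glia of the adrenal medulla and its nerves: S100b, Sox10, Fabp7, Cdh19, Mbp, Gfap, Ngfr and Pmp22. The 8 were given as a list of symbols and matched by symbol to GENCODE M21, out of 55536 annotated genes in the tables, of which 22015 were nuclear protein-coding genes. The samples were adrenal glands of 2 adult male B6CASTF1/J mice, F1 hybrids of C57BL/6J and CAST/EiJ, aged 8 to 10 months and numbered animals 2 and 4 by the submitters. They form 1 group, with no treatment in the labels, here replicates 1 and 2, and total RNA of the gland was sequenced with a strand-keeping kit from 300 ng of RNA and ERCC spike-ins. The libraries held 29994901 (replicate 1) and 33987434 (replicate 2) expected counts from annotated genes. A gene at 0 could still have had up to 3 counts, which is 0.101 CPM (counts relative to the scaled library total) for replicate 1 and 0.0871 CPM for replicate 2, counting error only. No test of a condition was possible, so differences below compare 1 animal with 1 animal and have no replicate check.

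The adrenal medulla holds chromaffin cells, which release catecholamines, and glia that surround them. Sustentacular cells are satellite glia that wrap clusters of chromaffin cells, and Schwann cells accompany the nerve fibres that enter the gland, with or without a myelin sheath. Both derive from the neural crest and share the transcription factor Sox10. In RNA of a whole gland, fewer cells of a type and less RNA per cell cannot be told apart. S100b and Pmp22 are also expressed outside glia.

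The glial genes formed a weak signal except for Pmp22, Mbp and, in replicate 2, S100b. A level of 1 TPM, the unit that sets counts relative to transcript length and library total, in both animals was reached by 5 of the 8, S100b, Cdh19, Mbp, Ngfr and Pmp22, beside 56.3% of nuclear protein-coding genes. Sox10, Fabp7 and Gfap stayed under 1 TPM in both. The median of the 8 was 1.32 TPM in replicate 1 and 1.75 TPM in replicate 2. Their summed level was 45.1 TPM in replicate 1, of which Pmp22 took 70.7%, and 70.0 TPM in replicate 2, of which Pmp22 took 61.0%. For scale, the 6 genes of the steroid-producing cortex had medians of 3628 and 2983 TPM and the 12 chromaffin genes 148 and 66.2 TPM.

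The order of levels was not the same in the animals below the leading gene. Pmp22 was highest in both. Mbp was next in replicate 1 and S100b in replicate 2. Ngfr and Cdh19 followed in that order in both animals. Credibility bounds of the deposited TPM, which describe the estimate within a library, overlapped among Sox10, Fabp7 and Gfap in each animal, so the order of these 3 was not resolved. In replicate 1 they also overlapped between S100b (1.05 to 1.78 TPM) and both Ngfr (1.77 to 2.34 TPM) and Cdh19 (0.994 to 1.64 TPM). The bounds of S100b in replicate 1 overlapped those of Sox10, Fabp7 and Gfap as well. Those of Cdh19 overlapped the bounds of Sox10 and Gfap in both animals, and of Fabp7 in replicate 1. Lying over or under 1 TPM thus did not separate Cdh19 from Sox10 and Gfap.

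**Figure D1:**
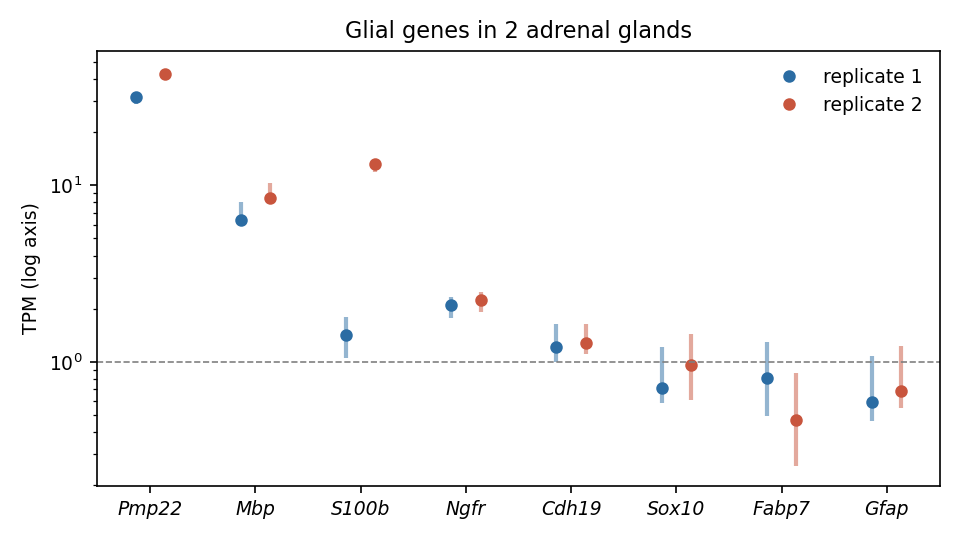
Levels of the 8 glial genes in TPM on a log axis, with 1 point per animal and gene; the vertical lines are the credibility bounds given in the deposited tables and the dashed line marks 1 TPM. Pmp22 is highest in both animals, S100b stands at 1.42 and 13.20 TPM, and Sox10, Fabp7 and Gfap lie under the dashed line.

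Sox10 is the transcription factor that specifies neural crest glia and is required for Schwann cells. Its gene lies on the minus strand of chromosome 15, from 79154908 to 79165240 (mm10). It had 45 expected counts in replicate 1 and 40 in replicate 2 in the RSEM-format tables, the source of counts and TPM unless said otherwise, and TPM of 0.71 and 0.96 (0.835 ± 0.177, SD, n = 2). By counts replicate 2 was lower, and by TPM it was higher. The scaled count fold of 0.764 (95% counting interval 0.486 to 1.20) includes equality. The effective length assigned to the gene differed, with 2270 bases in replicate 1 and 1391 bases in replicate 2, because its counts were put on different transcripts. In replicate 2 part of them were put on the short Sox10-202.

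The 2 long coding transcripts of Sox10 could not be separated by these data. Sox10-203 starts 750 bases upstream of Sox10-201 and has 67 bases that no other Sox10 transcript has, whereas Sox10-201 has 0 such bases. Sox10-203 took 41.0 counts in replicate 1 and 0 in replicate 2, while Sox10-201 took 0 and 24.6. The kallisto-format tables, a separate set of estimates from the same reads, showed the same exchange, with 37.5 and 0 counts on Sox10-203 and 2.10 and 33.7 on Sox10-201. Posterior mean counts divided them nearly evenly, with 20.2 for Sox10-203 and 18.5 for Sox10-201 in replicate 1, and 13.2 and 12.4 in replicate 2. The exchange between these 2 is thus between near-identical transcripts and is not reported as a difference in start use. Sox10-202, a coding transcript of 863 bases with 0 bases of its own, took 0 counts in replicate 1 and 10.5 in replicate 2. It held 47.7% of the gene's TPM in replicate 2. Sox10-204, a retained intron, took 3.99 and 4.98 counts.

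Other transcription factors of Schwann cells were as low as Sox10 or lower, apart from factors that many cells use. Of the 8 on the list, 2 were detected, Zeb2 at 60.6 ± 5.52 TPM and Nab2, a corepressor of EGR factors, at 13.2 ± 0.948 TPM (SD, n = 2). Egr2, which drives myelination, had 14 and 27 counts in replicates 1 and 2, and Foxd3, a neural crest factor, 24 and 17.0. Pou3f1, which acts before myelination, had 3 and 4 counts, Pou3f2 3 and 2, Tfap2a 5 and 5, and Sox2 1 and 8. None of the factors was 2-fold apart among the 2 with enough counts. The related SoxE factors Sox9 and Sox8 stood at 1.18 ± 0.212 and 0.785 ± 0.247 TPM.

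Ngfr encodes p75, the low-affinity neurotrophin receptor found on Schwann cells and on sympathetic and sensory neurons. It had 196 counts in replicate 1 and 225 in replicate 2, or 2.09 and 2.23 TPM (2.16 ± 0.0990, SD, n = 2; chromosome 11, 95568818 to 95587735, minus strand). These were close, with a scaled fold of 0.987 (0.811 to 1.20) whose side of equality depended on the scaling: the log2 ratio of CPM + 1 was -0.02 with TMM factors, the scaling used throughout, and 0.04 when scaled to spike-ins. The single annotated transcript, Ngfr-201, carried all of its counts.

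The ligands and partner receptors of p75 were measured beside it. Of the 8 genes of this list, 5 were detected, among them Sort1, the co-receptor sortilin, at 19.4 ± 7.82 TPM, Ntrk3, the receptor of neurotrophin-3, at 8.04 ± 1.56, and Ntrk2 at 6.28 ± 3.75 (SD, n = 2). Both Ntrk3 and Ntrk2 thus had a higher mean level per length than Ngfr. Ntrk2, the receptor of BDNF, had 444 counts in replicate 1 and 1057 in replicate 2. Its scaled count was 2.05-fold higher in the latter (1.83 to 2.29). Ntf3 stood at 0.92 and 1.19 TPM, and Ntf5 and Bdnf had 1 and 0 counts in replicate 1 and 3 and 2 in replicate 2.

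Cdh19 encodes cadherin-19, an adhesion protein of neural crest glia that is used as a marker of Schwann cells and their precursors. It was the steadiest of the 8 by TPM, with 1.22 and 1.28 TPM (1.25 ± 0.0424, SD, n = 2) from 122 and 147 counts. The scaled fold was 1.04 (0.809 to 1.33), which includes equality. The gene spans 110888326 to 110977584 on the minus strand of chromosome 1. In the RSEM-format values nearly all of its counts lay on the coding transcript Cdh19-201, with 120 in replicate 1 and 147 in replicate 2, against 1.89 and 0 on the short noncoding Cdh19-202. Kallisto put 7.66 and 11.0 counts on Cdh19-202. That was 0.370 and 0.502 TPM of the gene's 1.25 and 1.52 TPM by kallisto.

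Gfap, the glial filament protein of astrocytes, is also made by non-myelinating Schwann cells and by some sustentacular cells. It had 42 counts in replicate 1 and 52 in replicate 2, or 0.59 and 0.68 TPM (0.635 ± 0.0636, SD, n = 2; chromosome 11, 102887336 to 102900912, minus strand). The animals did not separate, since the fold of 1.06 had an interval of 0.695 to 1.64. Gfap-201, which encodes the common form, took 37.5 and 52 counts, and Gfap-202, which has a different end, 4.55 and 0. Of 6 astrocyte markers 3 were detected, Aldh1l1 (55.2 ± 2.02 TPM), S1pr1 (6.09 ± 0.608) and Slc1a3 (1.08 and 5.94 TPM). Other cells also express Aldh1l1 and S1pr1. Aqp4, the water channel that marks astrocytes, had 8 counts in each animal.

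Fabp7 encodes the brain-type fatty acid binding protein of radial glia, satellite glia and immature Schwann cells. It had the fewest counts of the 8, 16 in replicate 1 and 10 in replicate 2, or 0.81 and 0.47 TPM (0.640 ± 0.240, SD, n = 2; chromosome 10, 57784881 to 57788450, plus strand). All of them were on Fabp7-201. With so few counts the fold of 0.537 had an interval of 0.218 to 1.26, so a difference between the animals was not detectable at this depth.

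**Figure D2:**
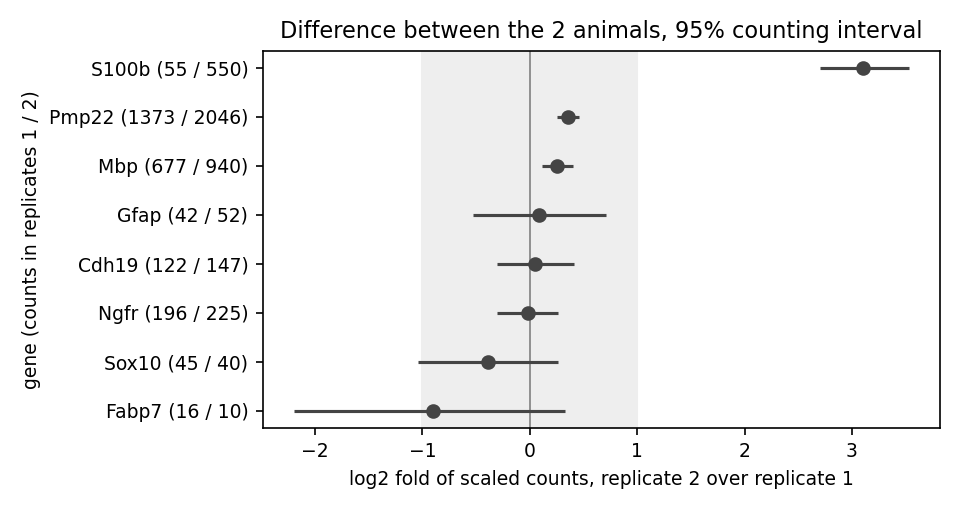
Log2 fold of scaled counts, replicate 2 over replicate 1, for each glial gene, with counts in replicates 1 and 2 beside its name; lines are exact 95% intervals for counting error and the grey band marks less than 2-fold. S100b alone lies outside the band, at 8.60-fold, and the intervals of Pmp22 and Mbp exclude 0 but stay inside it.

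S100b, a small calcium-binding protein made in quantity by glia and known also from fat cells, was the exception among the 8. It had 55 counts in replicate 1 and 550 in replicate 2, which is 1.86 and 15.97 CPM, or 1.42 and 13.2 TPM (7.31 ± 8.33, SD, n = 2). The animals were far apart, and the credibility bounds of 1.05 to 1.78 TPM and 11.9 to 14.01 TPM did not overlap. The scaled count was 8.60-fold higher in replicate 2 (6.51 to 11.6). A mean over the animals thus describes neither of them.

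Of the 5 glial genes whose counts averaged 100 or more, S100b was the 1 that lay at least 2-fold apart. Over all 12853 nuclear genes with that many counts, 3.51% lay 2-fold apart in either direction and 2.40% were 2-fold higher in replicate 2, so 1 of 5 is a count too small to set against the background. With a minimum of 10 counts, which all 8 reached, the number stayed at 1, beside 9.53% of all nuclear genes. S100b ranked at place 48 by log2 ratio among 12021 nuclear coding genes. The coding genes nearest to its log2 ratio of 2.57, over these 2 libraries only, were Slc7a10, an amino acid transporter used as a surface marker of white fat cells, the deiodinase gene Dio2, and the glutamine transporter gene Slc1a5, each also at 2.57 or 2.58. This likeness is on the scale of CPM + 1, which compresses low values. By scaled counts the folds were 8.66 for Slc7a10 (6.54 to 11.7), 20.6 for Dio2 (11.03 to 43.6) and 6.16 for Slc1a5 (5.71 to 6.66), beside 8.60 for S100b.

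Markers of fat cells were also higher in replicate 2, by amounts that varied widely. All 10 white adipocyte markers were detected, all 10 had scaled counts more than 2-fold higher in replicate 2, and their summed level was 261 TPM in replicate 1 and 2352 TPM in replicate 2. Their folds ran from 3.37 (Plin1, a lipid droplet protein, 3.23 to 3.52) to 20.99 (Pck1, an enzyme of glyceroneogenesis, 18.9 to 23.3). Adipoq (adiponectin) was at 8.56 (7.80 to 9.41). The others were Lep at 6.49, Cidec at 8.11, Fabp4 at 8.23, Lpl at 8.33, Retn at 11.5, Car3 at 13.4 and Cfd at 14.4. Brown adipocyte markers summed to 27.3 and 284 TPM, and 2 of 7 were detected in both animals. Their folds ran from 2.24 for Elovl3 (0.748 to 8.01, which includes equality) to 534 for the uncoupling protein gene Ucp1 (245 to 1456), from 6 counts in replicate 1 and 3727 in replicate 2. No white or brown marker was at 0 in both. The part of fat cells in the S100b difference was not tested.

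The other glial genes did not show a difference of that size. Without S100b the remaining 7 summed to 43.7 TPM in replicate 1 and 56.8 TPM in replicate 2. Without S100b, Pmp22 and Mbp, the 3 whose counting intervals exclude equality, the remaining 5 summed to 5.42 and 5.62 TPM. The nearness of these last sums follows in part from that choice of genes. The count of S100b over that of Sox10 was 1.22 in replicate 1 and 13.75 in replicate 2, and over that of Cdh19 it was 0.451 and 3.74. Ordinary scaling does not touch such ratios within a library.

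S100b has 1 annotated transcript, S100b-201, with 3 exons and 276 coding bases, so the whole difference falls on transcripts of a single annotated start on the plus strand of chromosome 10 (76253853 to 76261159). The far end of the gene overlaps Dip2a on the opposite strand, which had 1443 counts in replicate 1 and 2149 in replicate 2. The libraries keep strand, but whether counting used it is not given in the sources used here. The 250 bases before the RefSeq start of S100b are shown because every S100b count is assigned to S100b-201, whose annotated start lies 17 bases from the RefSeq start. They come from RefSeq on GRCm38.p6, chr10:76253586-76253835, plus strand, 5′ to 3′. Capitals mark matches to the motifs searched.

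S100b: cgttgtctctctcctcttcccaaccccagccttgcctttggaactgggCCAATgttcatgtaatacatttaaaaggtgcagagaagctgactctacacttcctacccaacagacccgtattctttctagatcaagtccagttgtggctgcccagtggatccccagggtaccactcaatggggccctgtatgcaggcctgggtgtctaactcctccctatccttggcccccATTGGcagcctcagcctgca

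The window was searched on both strands, overlaps allowed, for 5 short motifs. The TATA box was spelled TATAAA and the CCAAT box as its name. The GC box was spelled GGGCGG, the core bound by TEAD factors CATTCC, and the core bound by SOX factors either ACAAAG or, as a variant of it, ACAATG. The S100b window held 2 CCAAT boxes, a motif found in 33.8% of all 32851 windows of this length in the table, and none of the other motifs. Its GC content was 53.6%, near the median of 52.4%, with 2 CpG pairs against a median of 6. Windows were found for 5 of the 8 genes, Fabp7, Gfap, Ngfr, Pmp22 and S100b.

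Pmp22 encodes the 22-kDa membrane protein of compact peripheral myelin, which many cells outside the nerve also make. It was the most abundant of the 8, with 1373 counts in replicate 1 and 2046 in replicate 2, or 31.9 and 42.7 TPM (37.3 ± 7.68, SD, n = 2; chromosome 11, 63128982 to 63159547, plus strand). Replicate 2 was higher, and the credibility bounds of 29.1 to 33.9 and 39.7 to 44.8 TPM did not overlap. The scaled count was 1.28-fold higher (1.20 to 1.37), with an interval that excludes equality but stays under 2-fold. Fibroblast markers were higher in the same animal, 8 of 8, with sums of 145 and 280 TPM and none at 0. Among nuclear genes with at least 10 counts, 9436 of 18181 were higher there. Macrophage markers (8 of 8) and white adipocyte markers (10 of 10) were also higher in that animal, against 2 of 6 endothelial markers. The part of any of these cells in the Pmp22 difference was not tested.

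Most Pmp22 counts were assigned to the second of its annotated starts. Pmp22 is known for alternative promoters, the first used mainly by myelinating Schwann cells and later ones by many cell types. Its transcripts fell into 3 groups of starts more than 500 bases apart. Pmp22-204 begins at the first, Pmp22-201 begins 2530 bases downstream, and Pmp22-203, Pmp22-205 and Pmp22-202 begin 3587 bases or more downstream. Pmp22-201 and Pmp22-204 have coding parts of the same length, 480 bases, and share 1653 bases, leaving 169 bases of Pmp22-204 and 147 of Pmp22-201 by which they differ.

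Pmp22-201 took 94.1% of the gene's counts in replicate 1 and 84.7% in replicate 2. Pmp22-204, from the first start, took 0% in replicate 1 and 11.8% in replicate 2 (0 and 240.5 counts). Whether the first start had any counts in replicate 1 depended on the estimate. In the kallisto-format tables it took 9.35% and 9.06% (135 and 197 counts), and by posterior mean counts 1.48% and 12.7%. Across all 3 estimates the second start held between 82.1% and 94.1% of counts in each animal.

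The 250 bases before the first and second RefSeq starts of Pmp22 are shown to set these promoters side by side. They are from RefSeq on GRCm38.p6, plus strand, 5′ to 3′, at chr11:63128732-63128981, which ends at the start of Pmp22-204, and chr11:63131207-63131456, whose RefSeq start lies 55 bases from that of Pmp22-201. Capitals mark matches to the same motifs.

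Pmp22 first start: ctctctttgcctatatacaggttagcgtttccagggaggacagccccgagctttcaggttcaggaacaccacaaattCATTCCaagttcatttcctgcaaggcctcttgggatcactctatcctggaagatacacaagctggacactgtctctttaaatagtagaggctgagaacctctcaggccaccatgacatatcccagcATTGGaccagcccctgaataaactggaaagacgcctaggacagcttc

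Pmp22 second start: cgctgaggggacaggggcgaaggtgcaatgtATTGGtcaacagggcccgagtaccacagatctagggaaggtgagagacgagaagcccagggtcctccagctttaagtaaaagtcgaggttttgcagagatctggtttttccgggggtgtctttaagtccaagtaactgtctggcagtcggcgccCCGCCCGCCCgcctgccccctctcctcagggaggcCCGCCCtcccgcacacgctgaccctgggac

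The first window had 48.8% GC and 3 CpG pairs, and held 1 CCAAT box and 1 TEAD core, a motif in 12.6% of all windows. The second had 61.2% GC and 14 CpG pairs, and held 1 CCAAT box and 3 GC boxes, 2 of which overlap each other, a motif in 32.7% of all windows. Neither held a TATA box (12.4% of windows) or a SOX core (25.2%) as spelled above. A match here is a description of letters and not a site.

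Mbp, the basic protein of myelin, had 677 counts in replicate 1 and 940 in replicate 2. These are 6.38 and 8.47 TPM (7.42 ± 1.48, SD, n = 2), the second highest mean among the glial genes. The mean of S100b was close (7.31 ± 8.33), and S100b was below Mbp in replicate 1 and above it in replicate 2. By scaled counts of Mbp, replicate 2 was 1.19-fold higher (1.08 to 1.32), with an interval that excludes equality and stays under 2-fold. The gene lies on chromosome 18 (82475146 to 82585637, plus strand) and has 16 annotated transcripts, 7 of which received counts in the RSEM-format tables.

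Most of the Mbp counts were assigned to transcripts other than those of the start that serves myelin. The larger part of these lay on 1 transcript, Mbp-205, where unspliced RNA could also be counted. The locus is known to have an upstream start, which yields the golli transcripts also found in neurons and immune cells, and a downstream start, which yields the classic myelin basic proteins. In the annotation 4 transcripts begin at the upstream start and 11 begin 79324 bases or more downstream, near the classic start. The upstream group took 650 counts in replicate 1 and 865 in replicate 2, or 96.1% and 92.1% of the gene. The downstream group took 26.5 and 74.6 counts, and 1 further transcript took 0.

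The kallisto-format tables gave 93.1% to the upstream group in each animal, and posterior mean counts gave 93.6% and 91.9%. Shares of TPM, which divide by length, were 87.5% in replicate 1 and 77.9% in replicate 2. The downstream start thus held 0.80 TPM in replicate 1 and 1.87 TPM in replicate 2 of the gene's level. By kallisto it held 0.80 and 0.98 TPM. In these RSEM-format and kallisto-format values the classic transcripts together lay between 0.80 and 1.87 TPM.

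The upstream share rested on a single transcript. Mbp-205 took 581 counts in replicate 1 and 829 in replicate 2, with 69.3% and 69.2% of the gene's TPM. Its last exon has 4384 bases, of which 3953 are in no other Mbp transcript and lie inside an intron of the classic ones. In total RNA, unspliced RNA from either start would also be counted there, and coverage by position was not analysed here, so start use and unspliced RNA were not told apart. Without Mbp-205 the upstream group had 69.1 counts against 26.5 in replicate 1 and 36.8 against 74.6 in replicate 2, and by kallisto 38.8 against 53.1 and 47.6 against 69.4.

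**Figure D3:**
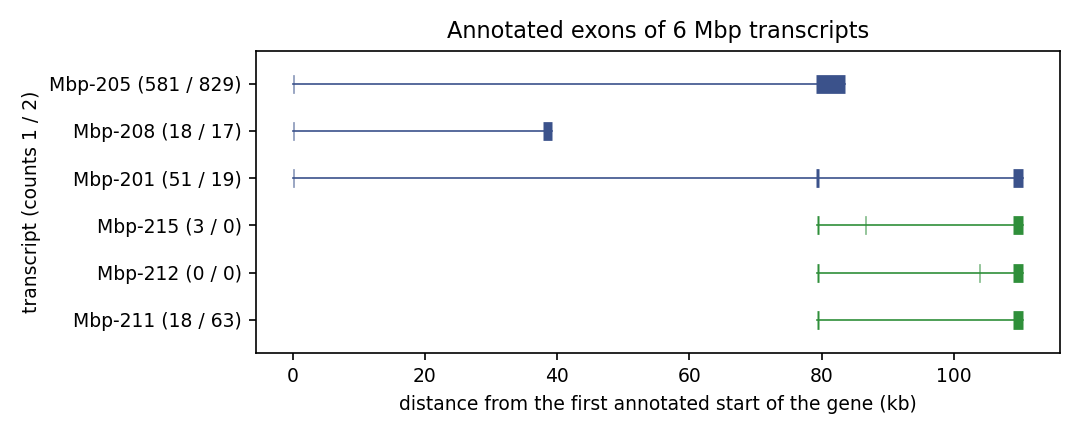
Annotated exons (thick) and introns (thin) of 6 Mbp transcripts by distance from the first annotated start in kb, with expected counts in replicates 1 and 2 beside each name; blue transcripts begin at the upstream start and green ones near the classic start, and the shortest exons are too narrow to be seen. Mbp-205, which holds 581 and 829 counts, ends in a broad exon at the place where the green transcripts begin.

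**Figure D4:**
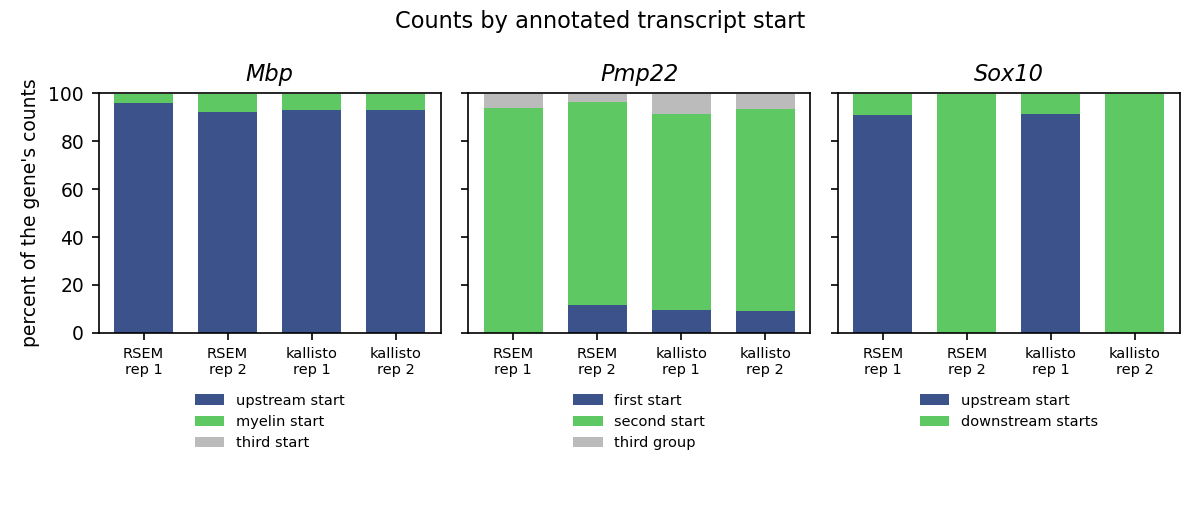
Percent of the counts of Mbp, Pmp22 and Sox10 assigned to each group of annotated starts, for each animal and by both sets of deposited estimates. The upstream group of Mbp holds 92.1% to 96.1% and the second start of Pmp22 82.1% to 94.1%. The Sox10 counts, divided among transcripts that share most of their bases, are not resolved by start. Posterior mean counts, not drawn, put 44.8% and 32.9% on the upstream start of Sox10.

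Defining markers of myelin and of other cells with Mbp were checked beside it. The oligodendrocyte genes Mog, Opalin and Ermn had 0 counts in both animals, and 0 of the 7 genes of that list were detected (summed 0.28 and 0.26 TPM). Among lymphocyte markers 0 of 7 were detected (2.00 and 3.59 TPM summed, none at 0 in both), and among macrophage markers 8 of 8 (209 and 337 TPM summed, none at 0). The part of these cells in the Mbp level was not tested.

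Peripheral myelin proteins other than Mbp and Pmp22 separated into detected genes and genes near 0. Of the 12, 5 were detected, among them Cnp, an enzyme of myelinating and other cells, at 26.5 ± 4.01 TPM, Mal at 4.21 ± 0.325, Gldn, the nodal protein gliomedin, at 3.94 ± 0.643, and Prx (periaxin) at 1.58 ± 0.205. In replicates 1 and 2, Gjb1 had 3 and 8 counts, Cldn19 2 and 8, Ncmap 6 and 6, Pllp 16 and 21, and Drp2 19 and 34. Mag, the myelin-associated glycoprotein, had 8 and 6 counts in the RSEM-format tables at 0.14 and 0.13 TPM, but 1.54 and 1.61 TPM by kallisto. None of the 5 whose counts averaged 100 or more was 2-fold apart.

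Genes of non-myelinating and immature Schwann cells stood higher, although most are also used by other cells. Of the 10, 7 were detected, led by the adhesion molecule Ncam1 (36.4 ± 0.658 TPM), which chromaffin cells also carry, the matrix protein Matn2 (22.1 ± 2.60), the endothelin receptor Ednrb (16.9 ± 1.46) and L1cam (8.44 ± 1.38). Gfra3, a receptor subunit for artemin, was at 1.39 and 1.84 TPM and Dhh, the hedgehog ligand of Schwann cells, at 2.02 and 1.41 TPM. Scn7a, a sodium channel gene of non-myelinating Schwann cells, had 394 counts in replicate 1 and 1038 in replicate 2. Its scaled count was 2.26-fold higher in the latter (2.01 to 2.55). It was the 1 gene of 7 with at least 100 counts that lay 2-fold apart, beside 3.51% of all nuclear genes with that many counts. Chl1 stood at 0.85 and 1.26 TPM and Kcna1 at 0.50 and 0.42.

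Neuregulin signalling, through which axons control Schwann cell number and myelination, was represented by all of its 8 listed genes. The receptor subunits Erbb3 and Erbb2 stood at 1.5 and 1.98 TPM and at 1.51 and 2.00 TPM in replicates 1 and 2, close to each other in each animal. The ligand Nrg1 stood at 2.43 and 1.53 TPM, but from 131 and 132 counts. Its scaled fold of 0.866 (0.675 to 1.11) includes equality. The secreted Schwann cell protein Lgi4 stood at 1.65 and 1.75 TPM, and its receptor Adam22 at 3.47 and 3.55. Adgrg6, a receptor needed for myelination, was at 1.36 and 1.25 TPM. The protease Bace1 (13.6 ± 0.205 TPM) and the adaptor Gab1 (8.98 ± 2.21) were higher and serve many cells. None of the 8 was 2-fold apart.

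By log2 ratio the glial genes lay on both sides of equality between the animals. The 3 whose counting intervals exclude equality, S100b, Mbp and Pmp22, were all higher in replicate 2. Log2 ratios of the 8 ran from -0.26 for Fabp7 to 2.57 for S100b. The median of the 8 was 0.05, beside a median of 0.01 over 18181 nuclear genes with at least 10 counts. Of the 8, 5 were higher in replicate 2, beside 9436 of the 18181. When scaled to library totals or spike-ins, 6 of 8 were higher, beside 10317 and 11080 of the 18181. The list medians were 0.06 for peripheral myelin proteins, -0.06 for non-myelinating and immature Schwann cells, 0.09 for neuregulin signalling, -0.12 for transcription factors and 0.35 for neurotrophins and receptors. With spike-in scaling the median of all genes was 0.07 and that of the glial genes 0.10. White adipocyte markers had a median of 3.03 and brown ones 2.42.

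**Figure D5:**
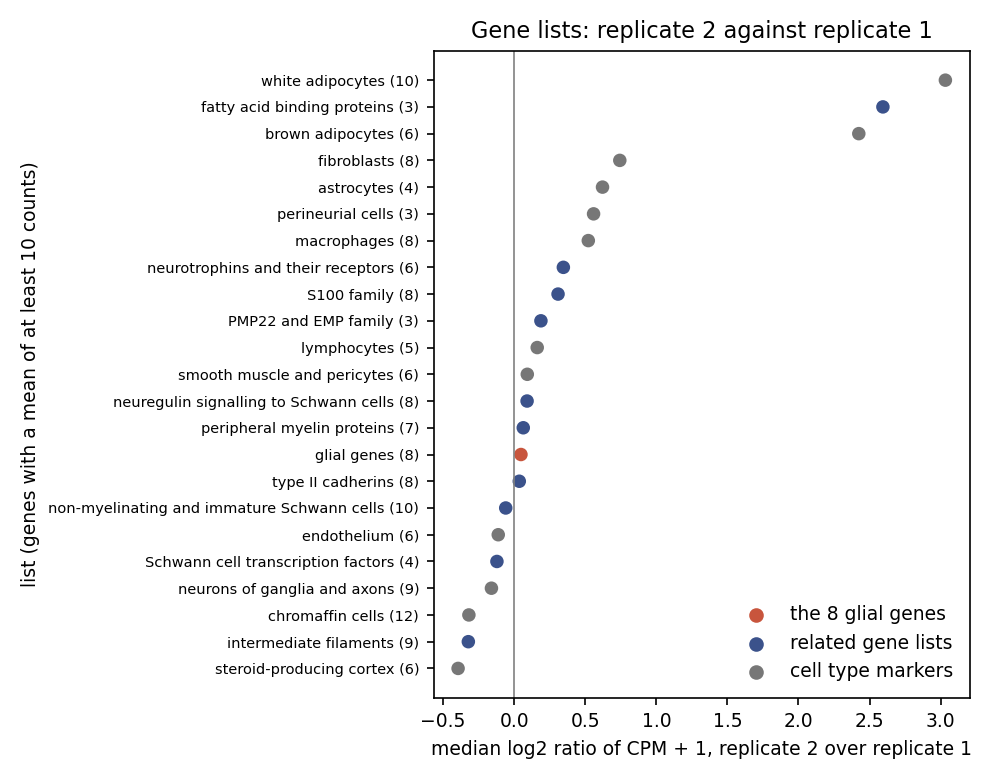
Median log2 ratio of CPM + 1, replicate 2 over replicate 1, for each list with at least 3 genes of at least 10 counts, whose number stands in parentheses. The 8 glial genes lie at 0.05, near 0, while white and brown adipocyte markers lie at 3.03 and 2.42 and the steroid-producing cortex at -0.40.

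Axon and chromaffin markers, of the cells that these glia accompany, were set beside them. Among markers of neurons and axons 6 of 10 were detected, with Uchl1, also a chromaffin gene, at 74.8 ± 1.98 TPM and Stmn2 at 6.71 ± 2.56. The neurofilament genes Nefl, Nefm and Nefh stood at 0.97, 0.79 and 1.30 TPM in replicate 1 and at 1.02, 0.58 and 1.02 TPM in replicate 2, beside 0.71 and 0.96 TPM for Sox10 and 1.22 and 1.28 TPM for Cdh19. Chromaffin genes were lower in replicate 2 for 10 of 12 by log2 ratio, with a median of -0.32. Th and Pnmt were the 2 of the 12 that lay 2-fold apart, beside 3.51% of all nuclear genes with at least 100 counts. Perineurial markers were detected for 3 of 4, with Cldn1 at 2.63 and 4.45 TPM, and melanocyte markers, of another neural crest lineage, for 0 of 5.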

How the data were processed

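Total RNA of 2 whole adrenal glands was measured, with 1 library per animal and no pooling. The deposited gene and transcript tables hold expected counts, not normalized, and TPM, computed by the authors over all entries with spike-ins included, under the column names RSEM writes, per the file headers. The percent of a gene's TPM taken by each transcript was also deposited. The authors also deposited, for each animal, kallisto-named columns of estimated counts with TPM, per the file headers. Accompanying text gives mm10 with GENCODE M21, with aligner and quantifier versions not given in the sources used here.

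From these, expected counts on annotated genes (mitochondrial genes set aside for comparisons) were scaled by TMM (edgeR 4.0.16 under R 4.3.3); size factors of DESeq2 1.42.0 served as an alternative. Counts were rounded for factors and folds. Log2 ratios are of CPM + 1 and understate low genes. Folds of scaled counts carry exact conditional binomial 95% intervals that cover counting error only, with 1 animal on each side. Reads lacking molecular identifiers can repeat a molecule, so these intervals can be too narrow. The fold script was tested on simulated data. Detection means 1 TPM or more in both animals, and 2-fold calls need a mean of at least 100 counts. The background for every such count is 56.3% of nuclear protein-coding genes detected and 3.51% of nuclear genes 2-fold apart. Alternatives were thresholds, scalings, pseudocounts, the kallisto tables, posterior means and leaving out each animal. The glial genes, 11 related lists and 14 marker lists were chosen with earlier results of these data known. Named genes were all 8 glial genes, those of the myelin, transcription factor, neuregulin and neurotrophin lists (some members are not reported here), and up to the 4 highest of other lists; further named genes were chosen after their values were seen.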

Additional observations from a re-analysis of the deposited data

How the results depend on the processing

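The number of glial genes detected, 5, stayed between 5 and 7 with a threshold of 0.5 TPM, kallisto TPM, posterior mean TPM and either animal left out. It was 3 at a threshold of 2 TPM and 8 after TPM were rescaled to nuclear protein-coding genes, which raises every level, for example the mean of Pmp22 to 99.5 TPM and of Sox10 to 2.23 TPM. The count of glial genes at least 2-fold apart was 1 under all 7 alternatives tried. Of 56 log2 ratios recomputed for the 8 genes, 52 lay as near the main value as the reach of its counting interval. Ratios of the deposited TPM, an alternative chosen after seeing the data, moved S100b to 3.22, Mbp to 0.41 and Sox10 from -0.22 to 0.44. S100b was also at 3.04 with a pseudocount of 0.1 CPM. Ngfr changed sign between scalings, between -0.02 (DESeq2 size factors) and 0.04 (spike-ins). Of the levels recomputed from other TPM values, 13 moved by more than 1 SD: all 8 after rescaling, 3 of 8 with kallisto TPM and 2 of 8 with posterior mean TPM. Leaving out an animal leaves the value of the other, which for S100b is 1.42 or 13.2 TPM. Shares of counts by start were also compared after seeing the data: posterior mean counts moved the upstream share of Sox10 from 91.1% and 0% to 44.8% and 32.9%, and kallisto moved the first start of Pmp22 in replicate 1 from 0% to 9.35%. No paired analysis was possible because there is 1 group. Depth limits Fabp7, Sox10 and Gfap, with 10 to 52 counts each.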

Other observations

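The families related to the glial genes differed unevenly between the animals. Of the 8 fatty acid binding protein genes related to Fabp7, 3 were detected, and all 3 were higher in replicate 2. Fabp4, also on the white adipocyte list, had 1529 counts in replicate 1 and 14636 in replicate 2 (8.23-fold, 7.81 to 8.68). Fabp3 had 23 and 335 (12.5-fold, 8.21 to 20.0), and Fabp5 135 and 532 (3.39-fold, 2.80 to 4.12). Fabp1, a liver and gut gene, had 11 counts in replicate 1 and 0 in replicate 2. Among the intermediate filaments related to Gfap 6 of 9 were detected, and Vim had 1459 and 4881 counts (2.88-fold higher in replicate 2, 2.71 to 3.05), while Nes had 587 and 419. In the S100 list, whose entry S100pbp encodes a binding protein and not an S100 protein, 8 of 16 were detected, led by S100a11 (58.1 ± 19.9 TPM) and S100a10 (39.6 ± 5.93), and S100a1 was 1.63-fold higher in replicate 2 (1.44 to 1.85). None of the 7 whose counts averaged 100 or more was 2-fold apart.

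Emp3, a relative of Pmp22 found in many cells, stood at 240 ± 17.0 TPM, above Pmp22 itself, and was lower in replicate 2 (0.818-fold, 0.781 to 0.856), whereas Emp1 was higher (1.75-fold, 1.60 to 1.91) and Emp2 stood at 2.23 and 2.78 TPM. Of the 12 type II cadherins listed beside Cdh19, 5 were detected, led by the endothelial Cdh5 (20.0 ± 4.58 TPM), Cdh11 (5.99 ± 0.0778) and Cdh6 (5.68 ± 0.580), and Cdh7 and Cdh20 had 2 to 12 counts per animal. In the astrocyte list, whose members Aldh1l1 and S1pr1 other cells also express, the glutamate transporter gene Slc1a3 had 64 counts in replicate 1 and 618 in replicate 2 (8.30-fold), close to the S100b fold, while Aqp4 had 8 in each. Endothelial markers summed to 323 and 328 TPM (6 of 6 detected), and smooth muscle and pericyte markers to 127 and 81.0 TPM (5 of 6), with Acta2 and Tagln more than 2-fold lower in replicate 2.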
